A study of Mus musculus with 6 samples.

Results

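The genes described here encode the proteins of the cytosolic ribosome. They were taken by symbol from the GRCm38 annotation: protein-coding genes named Rpl or Rps and a number, with Rpsa, Rplp0, Rplp1 and Rplp2. Of 102 protein-coding genes with such a name, 10 kinase genes of the Rps6k type, 6 genes with pseudogene-type names, 7 paralogues with an l after the number and the binding protein gene Rps19bp1 were left out. This gave 78 of the 49315 genes in the count table, 46 of the large and 32 of the small subunit, and all 78 had enough counts to be tested.

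RNA sequencing compared MNRR1-knockout (KO) cells of the mouse ovarian cancer line TKO with TKO cells whose MNRR1 was intact (WT), in 3 libraries each. TKO stands for triple knockout, so both groups carry those deletions, and the labels do not say which genes they are. The 3 KO libraries carry the name of 1 clone, so the genotype and any other trait of that clone cannot be told apart. Nothing in the labels says that the libraries of a group came from separate cultures, so the p-values rest on the spread among these 6 libraries, part or all of which may be technical. MNRR1 is the product of Chchd2, a protein of mitochondria and nucleus.

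Each ribosomal subunit is built in the nucleolus and finished in the cytoplasm from ribosomal RNA and one copy of most ribosomal proteins, so these genes are usually expressed at high and similar rates. Their mRNAs begin with a run of pyrimidines, the terminal oligopyrimidine (TOP) motif, through which mTORC1 signalling and the protein Larp1 control how well they are translated. Growing cancer cells, in particular those with high Myc or Mycn, keep both the ribosomal protein genes and the genes for ribosome assembly active.

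Library totals ran from 33226463 to 40983999 counts, and 16033 genes passed the filter on low counts. Levels below are CPM, each count divided by its library's total after TMM correction of that total and brought to a common depth, given in the order of replicates 1 to 3. Chchd2 was at 16.6, 17.6 and 16.9 CPM in KO and at 367, 349 and 340 CPM in WT, a log2 difference of -4.37 (SE 0.06, adjusted p = 8.56e-12, edgeR's quasi-likelihood test with Benjamini-Hochberg adjustment, used throughout). Epithelial and Mullerian markers, 9 of 10 of them tested, summed to 2250 to 2379 CPM in KO and 2774 to 2929 CPM in WT, with Pax8 too low to test. Within that sum Krt7, Krt8, Krt18 and Msln were called lower. Krt19, at a mean of 481 CPM in KO and 354 in WT, and Muc16, at 414 and 300, were called higher. Leukocyte markers summed to 3.36 to 3.94 CPM in KO and 5.59 to 12.1 CPM in WT, with Cd3e and Ms4a1 at 0 in every library. Much of the spread in WT came from Lyz2, at 1.74, 4.31 and 0.252 CPM. Endothelial and erythroid markers summed to 3.66 to 4.22 CPM in KO and 6.07 to 6.63 CPM in WT. Among them Kdr, at a mean of 1.13 CPM in KO and 5.35 in WT, and Tek, at 1.68 and 0.287, went opposite ways. Fibroblast markers summed to 940 to 1009 CPM in KO and 885 to 928 CPM in WT. Single fibroblast markers went opposite ways within that sum, with Col1a1 at a mean of 10.3 CPM in KO and 134 in WT, Thy1 at 0 and 2.28, Pdgfrb at 4.74 and 1.08 and Col3a1 at 480 and 268. All these sums differed between the groups without overlap, and their part in the results below was not tested. In such bulk samples, fewer cells of a type and less RNA per cell cannot be told apart.

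Promoter sequences from RefSeq (GRCm38.p6, from 250 bases before to 50 after the start) matched 58 of the 78 members in 68 entries. The letters CTTTCC, a pyrimidine core of the kind at TOP starts, stood on the sense strand within 50 bases of the start in 32.4% of the 68 entries and in 4.69% of all 32851 entries. The sites are shown because they differ in their surroundings while holding the same core, and because the first pair comes from a gene and its retrogene. They are 30 bases long, with the core in capitals, and come from Rps27 (chr3:90213630-90213659, minus strand), Rps27rt (chr9:114982722-114982751, minus strand), Rpl10a (chr17:28328574-28328603, plus strand), Rpl38 (chr11:114668568-114668597, plus strand), Rpl13a (chr7:45128719-45128748, minus strand), Rpl28 (chr7:4792955-4792984, plus strand) and Rps10 (chr17:27635223-27635252, minus strand).
Rps27: ccgctttcgctcCTTTCCggcggtgacgac
Rps27rt: acttatcccttgCTTTCCggcggtgacgac
Rpl10a: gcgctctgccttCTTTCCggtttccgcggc
Rpl38: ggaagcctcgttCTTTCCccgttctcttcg
Rpl13a: caagacctcctcCTTTCCcaggcggctgcc
Rpl28: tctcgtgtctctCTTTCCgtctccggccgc
Rps10: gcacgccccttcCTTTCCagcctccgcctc
The core began at base 2 of the transcript in Rps27, at 1 in Rps27rt and Rpl38, at 3 in Rpl28, at 5 in Rps10, at 10 in Rpl13a and at 22 in Rpl10a, counted from the RefSeq start. Rps27 and Rps27rt shared a run of 38 bases that began at these positions, and the bases before it differed. The log2 changes of these genes spread over most of the members' range, from -0.39 in Rps27 over -0.28 in Rpl10a, -0.21 in Rpl38, -0.18 in Rpl13a and -0.17 in Rpl28 to 0.04 in Rps10. Of the 58 matched genes, the 19 with the core had a median log2 change of -0.15 and the others -0.14, so these medians lay close together. CCGGAAG, a core of ETS family sites, was found on either strand of the whole window in 36.8% of member entries and 8.86% of all. AAGATGG, a core of YY1 sites, stood on either strand within 50 bases of the start in 10.3% and 2.64%. TATAAA was in 0 of the 68 in the 50 bases before the start, on either strand, and in 3.5% of all entries. These matches describe the letters in these windows only.

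Differences between KO and WT in the ribosomal protein genes were small and, where called, nearly all downward. The test called 38 of 78 members lower (48.7%) and 2 higher (2.56%), with the other 38 not called, where 27.8% of all tested genes were called lower, 27.8% higher and 55.7% in either direction. The median log2 change of the 78 was -0.14, the middle 50% ran from -0.23 to -0.10, and the range was -0.47 to 0.24. Over all tested genes the median was 0.01 and the middle 50% ran from -0.32 to 0.40. Ribosomal protein genes are highly expressed, with 75 of 78 at 100 CPM or more in WT. Among the 2613 tested genes at 100 CPM or more, 48.1% were called lower and 20.8% higher, with a median of -0.13 and a middle 50% from -0.34 to 0.09. The share of members called lower was therefore that of highly expressed genes in general and is not a result about ribosomal protein genes. What the members showed beside that was few rises and a narrow spread, given here as a description. For 75 of the 78 the 95% interval of the change lay within 1.5-fold in either direction, and for 30 within 1.2-fold. Outside 1.5-fold were the intervals of Rplp1 and Rps23, which were called, and of Rps27rt, which had few counts.

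The number of calls depended on single libraries and on the scaling. It was 64 lower without KO replicate 2 and 24 lower without KO replicate 1. KO replicate 2 was the KO library nearest to WT: the members' median log2 difference from the WT mean was -0.18, -0.06 and -0.21 in KO replicates 1 to 3. Highly expressed genes as a whole showed the same order, at -0.15, -0.08 and -0.17. Scaling by library totals alone called 18 members lower and 7 higher and moved the median of all tested genes to 0.13. The median was then -0.022 over the members and 0.0038 over the small subunit genes, so that the direction of the small subunit turned. The members' median lay 0.15 below the median of all genes under every scaling tried. A scaling shifts all genes nearly alike, so this difference could hardly vary with it. With 1 library left out, the members' median minus that of all genes ran from -0.11 (without KO replicate 3) to -0.20 (without KO replicate 2).

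**Figure D1:**
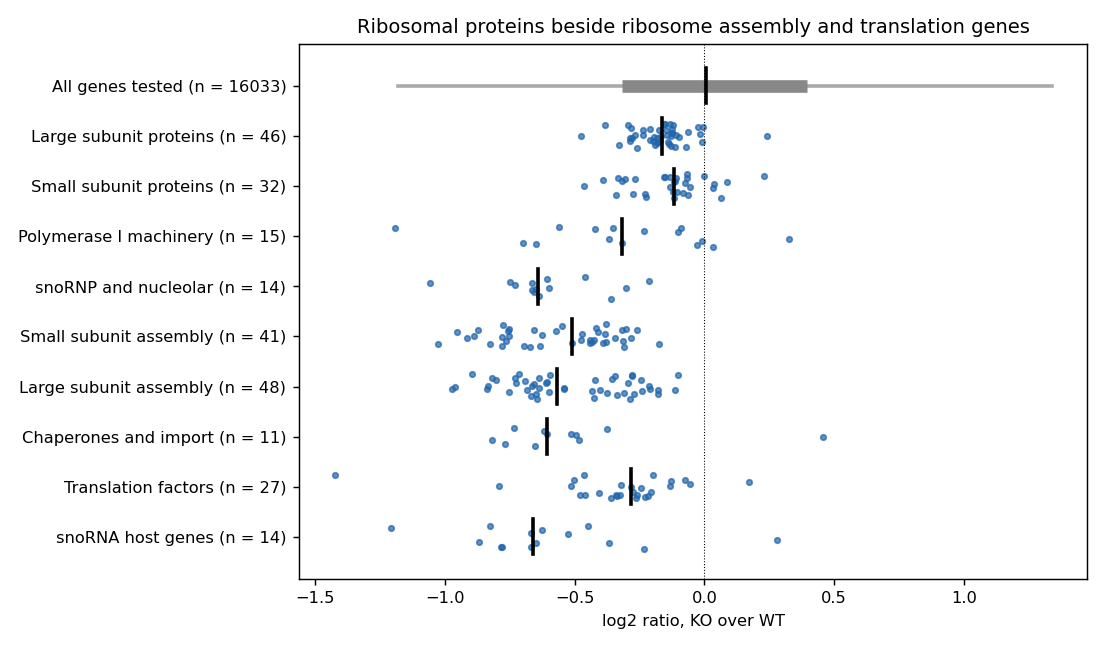
Log2 ratio of KO over WT for each tested gene (points) of the 2 subunits and of the lists described below, with the median as a vertical bar; for all 16033 tested genes the thick bar is the middle 50% and the thin line the middle 90%. The subunit genes lie close together around -0.16 (large) and -0.12 (small), whereas the 4 lists of snoRNP, subunit assembly and chaperone genes have medians of -0.51 to -0.64.

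The large subunit had 26 of 46 genes called lower (56.5%) and 1 higher. Its median log2 change was -0.16, and 45 of its 46 genes lay below 0. In the small subunit, 12 of 32 were called lower (37.5%) and 1 higher, with a median of -0.12, and 26 lay below 0. Among all tested genes at 100 CPM or more, 48.1% were called lower and 20.8% higher, with a median of -0.13. The median of the large subunit was 0.05 lower on the log2 scale than that of the small one. Scaling shifts both subunits nearly alike and could hardly alter this difference. With 1 library left out, the large minus the small subunit median ran from -0.035 (without KO replicate 2) to -0.066 (without WT replicate 3). Groups did not overlap, with KO lower, for 33 of 46 large and 17 of 32 small subunit genes. This was so for 31.9% of all tested genes and for 1388 of the 2613 at 100 CPM or more. With KO higher, groups did not overlap for 1 gene of each subunit, against 32.1% of all tested genes and 645 of those 2613. The small subunit's share with KO lower was that of highly expressed genes and is not a result about its genes. In 26 members the groups overlapped. Of the members lower in each KO library than in each WT library, 12 were not called, among them Rpsa, Rplp2, Rps25 and Rpl34.

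The counts of each subunit's genes can also be added up within a library, which needs no scaling between libraries. Large subunit genes took 2.43%, 2.58% and 2.43% of all counts in KO and 2.57%, 2.56% and 2.57% in WT. Small subunit genes took 1.56%, 1.64% and 1.53% in KO and 1.56%, 1.55% and 1.54% in WT. Both sets of shares overlapped between the groups, and together the 78 genes made up 4.06% ± 0.14 of counts in KO and 4.12% ± 0.0122 in WT (SD, n = 3 each). The ratio of large to small subunit counts was 1.561, 1.575 and 1.585 in KO and 1.647, 1.651 and 1.666 in WT, so each KO library had a lower ratio than each WT library. Without Rpl17 and Rps14, the members that were called higher, the ratio was 1.62 ± 0.0146 in KO and 1.69 ± 0.00756 in WT (SD, n = 3 each), again without overlap. These sums weigh each gene by its counts and are given without a test.

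**Figure D2:**
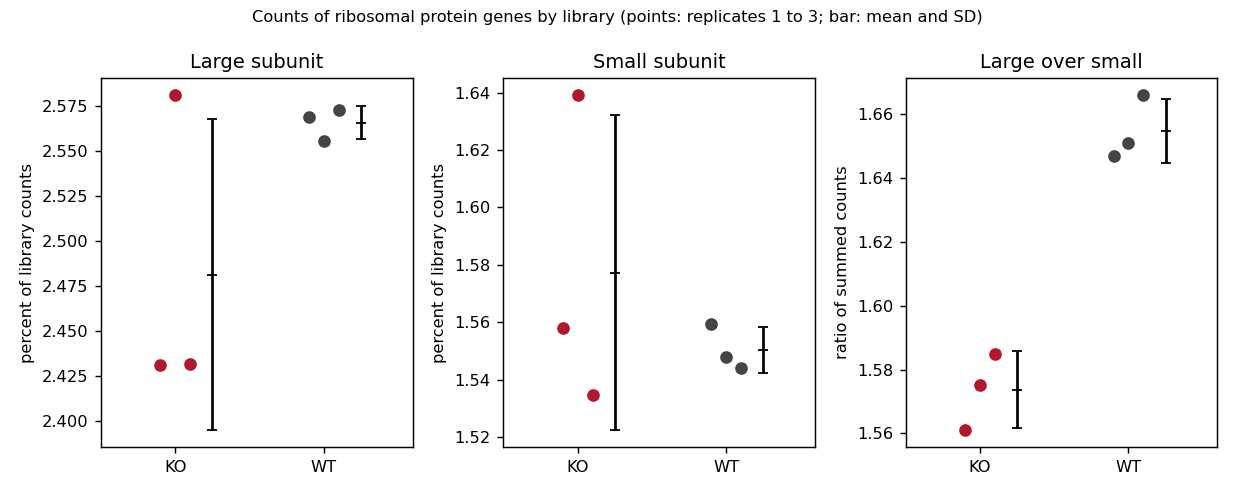
Share of library counts taken by large and small subunit genes, in percent, and the ratio of large to small subunit counts, with 1 point per library and, beside the points, the mean with its SD. The axes do not start at 0. Shares overlapped between KO and WT, whereas the 3 KO ratios, at 1.561 to 1.585, lay below the 3 WT ratios, at 1.647 to 1.666.

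The stalk of the large subunit recruits elongation factors to the ribosome, and it holds the single member with the greatest fall, Rplp1. The median over its 4 genes was -0.21, beside -0.24 for the 2 proteins of the 5S particle and -0.28 for 5 proteins near the peptidyl transferase centre or the tRNA sites. Rplp1 (ENSMUSG00000007892, chr9:61913284-61914542, minus strand, GRCm38), an acidic phosphoprotein of the stalk, was at 285, 319 and 258 CPM in KO and 389, 419 and 390 CPM in WT. All KO libraries lay below all WT libraries, and the log2 change was -0.47 (SE 0.07, adjusted p = 2.67e-04). Its partner Rplp2 was at 245, 256 and 233 CPM in KO and 269, 285 and 257 CPM in WT, and its log2 change of -0.14 was not called (adjusted p = 0.0528), though it was called in 6 of the other settings: without KO replicate 2 (adjusted p = 0.00299) or WT replicate 3, with DESeq2 or its size factors, with no filter and with the replicate block. Rplp0, the base of the stalk, was at 1170, 1307 and 1227 CPM in KO and 1400, 1370 and 1355 CPM in WT. It was called lower, at a log2 change of -0.16 (adjusted p = 0.0368), but lost the call in 8 of the other settings, among them those without KO replicate 1 or 3 or without any single WT library. Rpl12, which sits beside the stalk base, was at 689, 759 and 688 CPM in KO and 876, 852 and 831 CPM in WT, a log2 change of -0.26 (adjusted p = 0.00251). In all 4 genes the groups did not overlap. With KO lower, this was so for 31.9% of all tested genes and 1388 of the 2613 at 100 CPM or more.

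Rpl5 and Rpl11 form with 5S RNA the particle that joins the large subunit as a unit and, when free, binds the p53 ligase Mdm2. Rpl11 was at 423, 481 and 395 CPM in KO and 518, 537 and 519 CPM in WT, a log2 change of -0.28 (adjusted p = 0.0057). Rpl5 was at 821, 898 and 830 CPM in KO and 971, 956 and 996 CPM in WT, a log2 change of -0.20 (adjusted p = 0.00986), and lost the call without KO replicate 1 and with library totals. Both genes were lower in each KO library than in each WT library. Of 6 other tested genes of the 5S particle and the p53 axis, Mdm2 and Trp53 were called lower, at -0.35 and -0.16 on the log2 scale. Trp53 lost its call in 6 of the other settings, which were library totals (adjusted p = 0.453), upper quartiles, a threshold of 0.01 and the omission of KO replicate 1, WT replicate 1 or WT replicate 2. Cdkn1a, the p53 target that encodes the cell cycle inhibitor p21, was called higher at 2.47, as were Cdkn2a at 0.31 and Mdm4 at 0.20.

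Of 5 proteins near the peptidyl transferase centre, where peptide bonds form, or near the tRNA sites, 4 were called lower, with a median log2 change of -0.28 over the 5. Rpl3, one of the first proteins to join the large subunit, was at 828, 911 and 826 CPM in KO and 1138, 1112 and 1096 CPM in WT, a log2 change of -0.38 (adjusted p = 1.95e-04). Rpl10, which is among the last to be added, in the cytoplasm, was at 582, 622 and 572 CPM in KO and 793, 733 and 703 CPM in WT, a log2 change of -0.33 (adjusted p = 8.93e-04). Neither gene had an overlap between the groups. Around the tunnel through which the new peptide leaves, 3 of 9 genes were called lower (33.3%) and 1 higher, with a median of -0.13. Of all tested genes 27.8% were called lower, and of those at 100 CPM or more 48.1%. The tunnel share lay between these and is not a result about its genes, and 4 of 5 is a count of few genes. The tunnel gene called higher was Rpl17, at 740, 819 and 716 CPM in KO and 638, 634 and 655 CPM in WT, a log2 change of 0.24 (SE 0.06, adjusted p = 0.00548). Rpl39, a very small protein of the tunnel wall, was at 124, 126 and 119 CPM in KO and 129, 124 and 123 CPM in WT. Its groups overlapped, and the interval of its log2 change, -0.14 to 0.09, excluded a change of the size seen in Rpl3.

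Rpl22 is a surface protein that can be replaced by its paralogue Rpl22l1, which was not among the 78. Rpl22 was at 174, 186 and 169 CPM in KO and 204, 203 and 197 CPM in WT, a log2 change of -0.19 (adjusted p = 0.00935, and 0.184 with library totals). Rpl22l1 was at 71.5, 74.7 and 58.9 CPM in KO and 89.9, 89.9 and 77.5 CPM in WT, a log2 change of -0.33 (adjusted p = 0.0116, 0.0505 without WT replicate 1 and 0.0597 with library totals).

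In the small subunit, Rps23 had the greatest fall. Rps23 (ENSMUSG00000049517, chr13:90922958-90924950, plus strand, GRCm38), a protein of the decoding centre, was at 297, 322 and 270 CPM in KO and 412, 418 and 396 CPM in WT. Its log2 change was -0.46 (SE 0.07, adjusted p = 1.44e-04), with no overlap. It was the only 1 of 4 genes at the mRNA entry and the decoding centre to be called, and the median of the 4 was -0.09. That share of 25% was near the 27.8% of all tested genes called lower and is not a result about these genes. Rps12, a protein of the head of the subunit, was at 222, 247 and 223 CPM in KO and 285, 302 and 283 CPM in WT, a log2 change of -0.33 (adjusted p = 5.86e-04). All its KO values lay below all its WT values.

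Rps27, a zinc finger protein, was at 148, 162 and 136 CPM in KO and 196, 192 and 196 CPM in WT, a log2 change of -0.39 (adjusted p = 3.54e-04). Its retrogene Rps27rt was at 2.29, 2.09 and 1.65 CPM in KO and 2.43, 1.62 and 2.52 CPM in WT, and these overlapped. At that level a difference of the size seen in Rps27 was not detectable for Rps27rt, whose log2 change was -0.13 (adjusted p = 0.637). The paralogue Rps27l, a p53 target left out of the 78 by its name, was at 49.1, 61.2 and 44.1 CPM in KO and 74.1, 84.3 and 77.1 CPM in WT, a log2 change of -0.61 (adjusted p = 0.00102). Rps27 and Rps27l were thus both lower in KO.

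At the mRNA exit and the platform, 2 of 5 genes were called lower (40%) and 1 higher. The share called lower was 27.8% of all tested genes and 48.1% of those at 100 CPM or more. The count is thus not a result about these genes. Rps26, which contacts the mRNA upstream of the start codon, was at 301, 350 and 311 CPM in KO and 401, 408 and 409 CPM in WT, a log2 change of -0.34 (adjusted p = 7.32e-04). Its neighbour on the platform, Rps14, went the other way, at 870, 904 and 872 CPM in KO and 791, 743 and 726 CPM in WT, a log2 change of 0.23 (SE 0.05, adjusted p = 0.00394). Neither gene had overlapping groups. Rpsa, also known as the laminin receptor, was at 1277, 1400 and 1336 CPM in KO and 1464, 1415 and 1466 CPM in WT, and its log2 change of -0.11 was not called (adjusted p = 0.0989, and 0.00604 without KO replicate 2).

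Rps6, the substrate of S6 kinases, was at 746, 833 and 750 CPM in KO and 743, 739 and 748 CPM in WT. These values overlapped, and the interval of the log2 change was -0.06 to 0.19, with a call as higher only under library totals (adjusted p = 0.00589). Rps27a, made as a fusion with ubiquitin, was at 422, 458 and 402 CPM in KO and 477, 464 and 449 CPM in WT, also with overlap (log2 change -0.12, adjusted p = 0.117, and 0.00225 without KO replicate 2). Rps19, the gene most often mutated in Diamond-Blackfan anaemia, was at 280, 284 and 251 CPM in KO and 307, 309 and 291 CPM in WT. It was called at a log2 change of -0.15 (adjusted p = 0.0444), and the call was lost in 8 of the other settings, the same ones as for Rplp0. Of 20 genes mutated in that anaemia, 8 were called lower (40%) and 0 higher, with a median of -0.13. That share was below the 48.1% of highly expressed genes and is not a result about these genes.

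**Figure D3:**
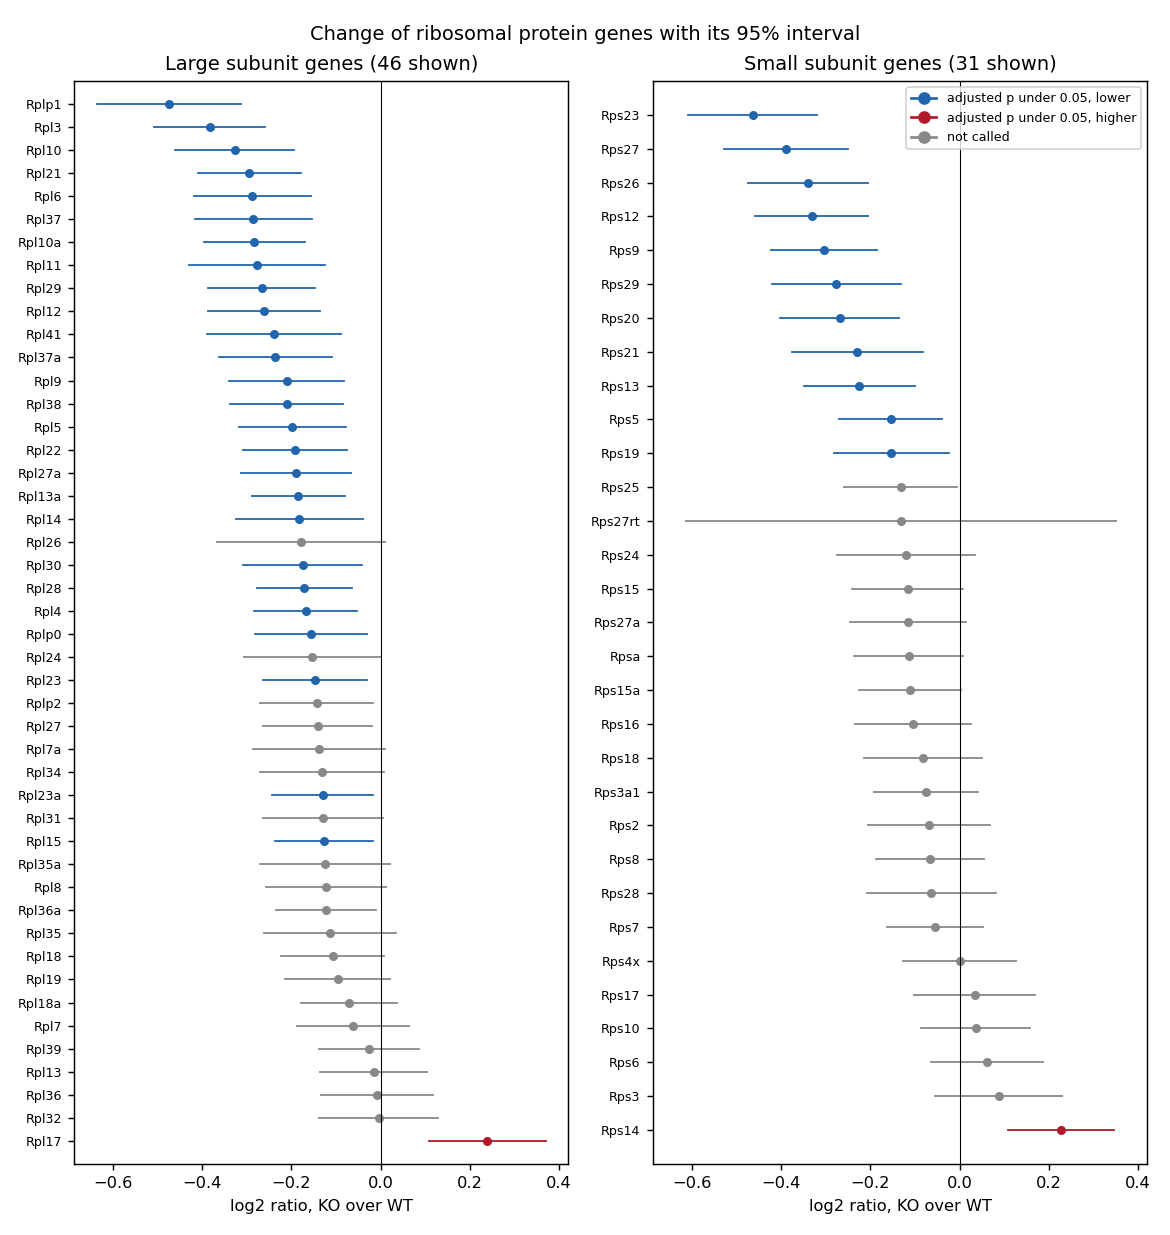
Log2 ratio of KO over WT for the 46 large and all but 1 of the 32 small subunit genes, with the fitted 95% interval, coloured by whether the adjusted p was under 0.05. Nearly all genes lie left of 0 in a narrow band, with Rplp1 (-0.47) and Rps23 (-0.46) lowest and Rpl17 (0.24) and Rps14 (0.23) highest.

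Some ribosomal proteins have genes with other symbols. Fau, the ubiquitin-like fusion that gives a small subunit protein, was called at a log2 change of -0.12 (adjusted p = 0.0444) and lost the call in 10 of the other settings, among them those without KO replicate 1 or 3 or without any single WT library. Rack1, a scaffold on the small subunit, was at -0.08 and not called (adjusted p = 0.235, and 0.0273 without KO replicate 2). Of 6 tested relatives left out by name, 4 were called lower (66.7%), beside 27.8% of all tested genes and 48.1% of those at 100 CPM or more. Beside Rps27l and Rpl22l1 the relatives called lower were Rpl36al, at 78, 95 and 69 CPM in KO and 118, 122 and 115 CPM in WT (log2 change -0.55, adjusted p = 9.71e-04), and Rps19bp1 at -0.51 (adjusted p = 4.21e-04). Rpl7l1, at -0.18, and Rpl3l, at -0.49, were not called (adjusted p = 0.0592 and 0.386), though Rpl7l1 was called lower in 5 of the other settings, with an adjusted p of 3.58e-05 without KO replicate 2. Rpl10l and Rpl39l had no count in any library, and Rps4l was too low to test.

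Per kilobase of annotated exon, the members' levels averaged over the 6 libraries had a median of 229 CPM per kb and ran from 5.62 to 933. Highest were Rps15 at 933, Rpl7a at 814, Rps2 at 794, Rpl8 at 788 and Rplp0 at 786 CPM per kb. Lowest were Rps27rt at 5.62, Rpl26 at 39.8, Rps20 at 49.3, Rps15a at 58.1 and Rps19 at 61.3 CPM per kb. The exon length covers every annotated transcript, retained introns too. With the length of the principal transcript in its place, 4 of the 5 highest and 3 of the 5 lowest stayed in those places. Of these 10 genes, Rps20, Rplp0 and Rps19 were called lower, and Rpl26, Rpl7a, Rpl8, Rps15, Rps15a and Rps2 were called lower once KO replicate 2 was left out. Across the 78 genes, Spearman's rho of the log2 change was -0.04 with exon length and 0.23 with mean CPM, as descriptions of genes that share the same 6 libraries.

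The chromosome of a member went with its change in some places. The members called higher, Rpl17 and Rps14, are the only members on chromosome 18, where the median of the 416 tested genes was 0.15. Within 5 Mb of Rpl17 the median was 0.34 over 41 genes, and within 5 Mb of Rps14 it was 0.13 over 50 genes. On chromosome 13 the median of all 546 tested genes was -0.28, and around Rps23, the only member there, it was -0.40 over 36 genes. The direction of these 3 members was thus that of the genes around them, and the part of the surroundings in their change was not tested. Chromosome 5 had a median of -0.15 over all genes, and all 5 of its members were called lower. Chromosome 7, in contrast, had a median of 0.15, while 8 of its 14 members were called lower and their median was -0.15. Of the 78 members, 74 lay below the median of their own chromosome, with a median difference of -0.15. Outside chromosome 18, 38 of 76 members were called lower (50%) and 0 higher. Of all tested genes 27.8% were called lower, and of those at 100 CPM or more 48.1%. The share of 50% was near the latter and is not a result about the members. The counts on single chromosomes rest on few members and are given as a description.

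**Figure D4:**
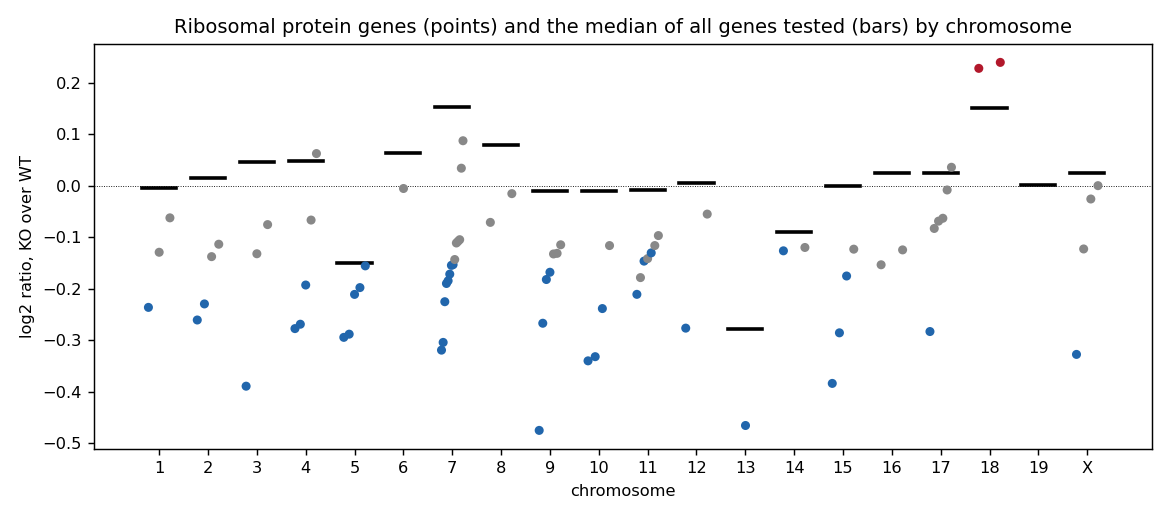
Log2 ratio of KO over WT of each ribosomal protein gene by chromosome (points), beside the median of all tested genes on that chromosome (bar). Chromosome 18, with an all-gene median of 0.15, holds both members called higher, and Rps23 is the only member on chromosome 13, with an all-gene median of -0.28.

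The genes that build ribosomes had lower values than the ribosomal protein genes themselves, a difference that was not tested. Of all tested genes 27.8% were called lower and 27.8% higher, and of those at 100 CPM or more 48.1% and 20.8%. Of 129 tested genes in 5 lists of ribosome assembly, 116 were called lower (89.9%) and 2 higher, and the median change was -0.54 on the log2 scale. Their median difference from the WT mean was -0.62, -0.34 and -0.67 in KO replicates 1 to 3, so KO replicate 2 was again nearest to WT. All 14 snoRNP and nucleolar proteins were called lower, with a median of -0.64, among them Rrp9 at -1.06, the pseudouridylation factor Nhp2 at -0.75 and the helicase Ddx21 at -0.73. In the small subunit list 40 of 41 were lower, with Heatr1 at -1.03, Wdr43 at -0.96 and Nol10 at -0.91. In the large subunit list 44 of 48 were lower, with the GTPase Gtpbp4 at -0.97, Nop16 at -0.96 and Rbm28 at -0.90.

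Of 11 tested genes for chaperones and import factors of ribosomal proteins, importins among them, 10 were called lower (90.9%). They included Grwd1, the chaperone of Rpl3, at -0.82, Tsr2, the chaperone of Rps26, at -0.77, and the importin Ipo7 at -0.73, whereas Aamp, related to the yeast chaperone of Rpl10, was called higher at 0.46. Rpl3, Rps26 and Rpl10 themselves were at -0.38, -0.34 and -0.33. RNA polymerase I genes, which transcribe ribosomal RNA, had 8 of 15 lower (53.3%) and 1 higher. Of all tested genes 27.8% were called lower, and of those at 100 CPM or more 48.1%. Many of the 15 genes lay below that level, such as Cd3eap at a mean of 67.3 CPM in WT. Neither share matches their levels, so the count is given as a description. Lower calls among the polymerase I genes included Cd3eap at -1.19, Polr1d at -0.70 and Taf1d at -0.65, against Ttf1 at 0.33. Of 14 snoRNA host genes without a coding product, 12 were called lower (85.7%, beside 27.8% of all tested genes), with a median of -0.66. They included Snhg5 at -1.21, Snhg6 at -0.83 and Zfas1 at -0.87, the last of which lost its call without KO replicate 2 (adjusted p = 0.115).

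Translation factors, many of them encoded by TOP mRNAs, were lower in 22 of 27 cases (81.5%) and higher in 1, with a median of -0.28. The share called lower was 27.8% of all tested genes and 48.1% of those at 100 CPM or more. Eef1e1, a part of the tRNA synthetase complex, was at -1.42, Pabpc4, a poly(A) binding protein, at -0.79 and Hnrnpa1 at -0.51, while Eif3c was called higher at 0.17 (adjusted p = 0.0308) and lost the call in 5 of the other settings, among them those without KO replicate 1 or without any single WT library. Elongation factor Eef2 was at -0.13 and Eef1b2 at -0.07, neither of them called. Regulators of mTORC1 and TOP mRNAs went both ways, with 8 of 34 lower (23.5%) and 16 higher (47.1%), beside 27.8% each way of all tested genes. Inhibitors of mTORC1 led the rises, with Ddit4 at 1.95, Sesn1 at 1.62 and Castor2 at 1.53. The cap binding protein Eif4e was at -0.67, Larp4b at -0.64, Cnbp at -0.60 and the TOP binding protein Larp1 at -0.32, all called lower.

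Transcription factors known to act on ribosomal protein or assembly genes also went both ways, with 4 of 20 lower (20%) and 5 higher (25%). Of all tested genes 27.8% were called in each direction, so these shares are not a result about the factors. Mycn was at 391, 458 and 321 CPM in KO and 977, 950 and 900 CPM in WT, a log2 change of -1.27 (adjusted p = 1.61e-05). Myc was far less abundant, at 6.64, 10.8 and 4.66 CPM in KO and 15.4, 17.7 and 12.7 CPM in WT, a log2 change of -1.05 (adjusted p = 0.0098) that lost its call with no filter on low counts. For both genes the groups did not overlap, and KO replicate 2 was the KO library nearest to WT. Mycl, the other member of the Myc family, was called higher, at 0.82 (adjusted p = 8.25e-04). Of the partners of Max that oppose Myc, Mxi1 at 1.29, Mxd4 at 1.06 and Mxd1 at 0.86 were called higher, while Mxd3 at -0.016 and Mnt at 0.25 were not called. Gabpb1, a subunit of an ETS factor, was called lower at -0.46. Genes of ribosome quality control were lower in 13 (54.2%) and higher in 6 (25%) of 24 cases. Of tested genes at 100 CPM or more 48.1% were called lower and 20.8% higher, and of all tested genes 27.8% each way. Many of the 24 genes lay below that level, such as Rnf25 at a mean of 15 CPM in WT. Neither background matches their levels, so the counts are given as a description. The lower calls included Habp4 at -0.79, Usp10 at -0.48 and Pelo at -0.37, and the higher ones Gigyf1 at 1.01, Rnf25 at 0.48 and Ascc1 at 0.46.

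The proteins of the mitochondrial ribosome, which has a separate set of nuclear genes, gave a like count. Of 78 tested genes, 44 were called lower (56.4%) and 3 higher, with a median of -0.22 and a middle 50% from -0.37 to -0.05 on the log2 scale. The share called lower was 27.8% of all tested genes and 48.1% of those at 100 CPM or more. The middle 50% of the cytosolic set, -0.23 to -0.10, was narrower, and no test of this difference was made.

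Many mouse ribosomal protein genes have processed pseudogenes, and no source used here gives how reads matching several copies were counted. Of the 78 members, 61 had an annotated pseudogene with their name, and in 6 the named copies held over 1% of the member's own counts. For Rps3a1 they held 63%, in Rps3a3 and, with fewer counts, Rps3a2. Neither copy was called (log2 change -0.04 in each, adjusted p = 0.547 and 0.526), and the change of Rps3a1 is uncertain for that reason. The next highest were Rpl38 with 3.12%, Rpl15 with 2.74%, Rpl37 with 2.13%, Rps6 with 1.72% and Rpl19 with 1.25%.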

How the data were processed

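Gene expression was measured by RNA-seq in 3 KO and 3 WT libraries, grouped by the genotype in the labels. The deposited values were raw counts per Ensembl gene. Per the submitters' processing notes, the genome was GRCm38 (mm10) and the tools were STAR 2.5.2b, Trimmomatic 0.36, Subread 1.5.2, bcl2fastq 2.17 and DESeq2. No source used here gives the annotation release, the strandedness of counting or the handling of multiply mapping reads, so reads of overlapping genes and of near-identical copies can be misassigned. Symbols and exon lengths came from GENCODE M21, which matched 49056 of 49315 gene IDs.

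Counts were fitted in R 4.3.3 with edgeR 4.0.16 (filterByExpr at a minimum count of 10, scaling by trimmed means of M values (TMM), robust quasi-likelihood test, genotype as its only term), and p-values were adjusted by Benjamini-Hochberg over 16033 genes, with calls at 0.05. The code was tested on simulated data. Alternatives were 4 other scalings, 2 other filters, DESeq2 1.42.0, limma voom 3.58.1, a non-robust fit, a replicate block, a threshold of 0.01, the addition of pseudogene counts and the omission of each library. The addition of all named copies was chosen after seeing the data.

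The members and lists were chosen with earlier results of these data known. Of 307 list entries, 301 matched by symbol and 3 by synonym. Named members were the 8 called with the greatest fall and up to 8 with the greatest rise, the 5 highest and 5 lowest per kb, and a fixed set of members and relatives. From each list up to 3 called genes in each direction at 1 CPM or more were named, with the greatest change. Rpl34, Rps25, Rpl38, Rpl13a, Rpl28, Rpl10a, Rps10, Eef2, Eef1b2, Larp1, Mycl, Mxd3, Mnt, the copies and the markers fall outside this rule and were named after their values were seen. A few of the genes named by it are not reported here.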

Additional observations from a re-analysis of the deposited data

How the results depend on the processing

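With library totals as the only scaling, 18 members were called lower and 7 higher, and the median log2 change was -0.022 over all members, -0.042 over the large and 0.0038 over the small subunit. Under that scaling several genes crossed 0 without a call on the other side: Rps15a at 0.0089, Rps2 at 0.052, Rps15 at 0.0038, Rpsa at 0.0056, Rps27a at 0.0038, Rack1 at 0.044 and Rpl39 at 0.095, which was also at 0.026 with upper quartiles. At a threshold of 0.01, 24 members were lower. Leaving out 1 library in turn gave 24 to 64 members lower. With the replicate number as a block, 39 members were lower and 2 higher, and 36 of the 38 lower calls were shared. Same-numbered libraries showed no shared deviation from their group means (correlations -0.059, 0.0513 and 0.0283), and other pairs ran from -0.0946 to 0.0848. With 3 libraries in each group, this cannot settle whether the numbers pair the samples. The 97 single-gene results were each compared with the main fit in the other settings. Of these comparisons, 1756 kept direction and call, 54 lost the call, 24 gained it and 8 changed sign. Comparisons of 1 gene in several settings share the same libraries and are not independent. The cause of these shifts was not tested. At this depth 75 of 78 members are bounded within 1.5-fold, and low counts limit what can be said of Rps27rt.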
